A study of Mus musculus with 2 samples.

Results

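Cycling thymic epithelial cells were described in 2 droplet single-cell RNA libraries of mouse thymus, where they made up 260 of the 7621 cells that passed a cell filter, out of 9234 deposited barcodes. A cell entered the filter with at least 500 genes, at least 1000 UMIs (unique molecular identifiers, the tags that count single RNA molecules) and at most 10% mitochondrial UMIs. A cell was called cycling with a UMI in at least 3 of 6 proliferation genes (Mki67, Top2a, Birc5, Cdk1, Ube2c and Pclaf). It also needed at least 1 Epcam UMI and had to hold a UMI in fewer than 3 of 7 T cell genes (Cd3e, Cd3d, Cd3g, Lck, Cd8a, Cd8b1 and Rag1). The library labelled Foxp1 KO (Cre+) held 131 such cells and the library labelled Foxp1 WT (Cre-) held 129.

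The study sorted live EPCAM+ cells from dissociated thymi of both genotypes and asked what the forkhead transcription factor Foxp1 does in the epithelium of the medulla. The characteristics field for genotype reads KO in both samples, so title and library name set the groups. The sources used here do not give how many animals were pooled, how old they were or of which sex. Nor do they give the Cre driver, the deleted part of Foxp1 or the end of the transcript that was read. Each group is 1 library, so nothing was tested. Every interval below is an exact 95% interval for counting error only, and no difference has been measured against the spread between mice.

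The thymic medulla renews its epithelium through dividing cells, and medullary thymic epithelial cells (mTECs) show tissue-restricted self-antigens to developing T cells. Part of that display depends on the regulator Aire and part on the transcription factor Fezf2. Dividing mTECs known as transit-amplifying cells precede mature Aire-expressing cells, and mTECs that secrete the chemokine Ccl21a form another, Aire-negative branch. In a dividing cell, replication genes peak in S phase and the genes of chromosome segregation peak in G2 and mitosis.

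Foxp1 itself was higher in the cycling cells of the library labelled KO, with 448 UMIs or 214 CPM (UMI counts scaled to the same total in every class of cells), against 303 UMIs or 133 CPM in those labelled WT. The log2 ratio of KO over WT was 0.69 (0.47 to 0.90). The gene lies on the minus strand of mm10 chromosome 6 from 98925338 to 99522721 and overlaps other annotated genes, and it is not stated whether the counted part lies in the deleted part. The level therefore goes against the label and does not check the genotype, so the groups are called by their labels throughout. The filtered libraries held 3584 and 4037 cells. Of all deposited barcodes, before the filter, 5 occurred in both libraries, and 1 cycling cell carried such a barcode.

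The share of cycling cells did not differ between libraries beyond counting error. They were 131 of 2688 Epcam-positive cells in the library labelled KO (4.87%, 4.09 to 5.76) and 129 of 3179 in the library labelled WT (4.06%, 3.40 to 4.80). The log2 ratio of the shares was 0.26 and its interval, -0.10 to 0.63, included 0. Thinning every cell to 2000 UMIs before the rule was applied left 19 of 1778 cells (1.07%) in the library labelled KO and 21 of 2038 (1.03%) in the library labelled WT. That step left out 551 KO-labelled and 441 WT-labelled cells as shallower. The share found therefore depends on depth. Cycling cells had medians of 14914 UMIs (KO) and 16263 UMIs (WT), against 6477 and 7793.5 UMIs in the other Epcam-positive cells of the same libraries. Per cell, the totals ran from 1821 to 60048 UMIs in the library labelled KO and from 2233 to 48718 UMIs in the library labelled WT.

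The number of proliferation genes seen in a cell was spread alike in both libraries. Exactly 3, 4, 5 and 6 of them had a UMI in 45, 39, 22 and 25 cells labelled KO and in 40, 37, 25 and 27 cells labelled WT. Just outside the rule, 101 KO-labelled and 100 WT-labelled cells had exactly 2. Between cells with 3 and cells with 2, Pclaf averaged 165 against 38.8 CPM in the library labelled KO and 161 against 24.3 CPM in the library labelled WT. Top2a averaged 119 against 61.8 CPM (KO) and 118 against 49.8 CPM (WT), a smaller step than for Pclaf. Mki67 had no such step, with 33.8 against 40.2 CPM (KO) and 30.3 against 37.4 CPM (WT). Median depth was 11397 against 12611 UMIs (KO) and 14038 against 14713 UMIs (WT). Both groups of cells are set by these same genes, so steps in them follow in part from the rule.

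**Figure D1:**
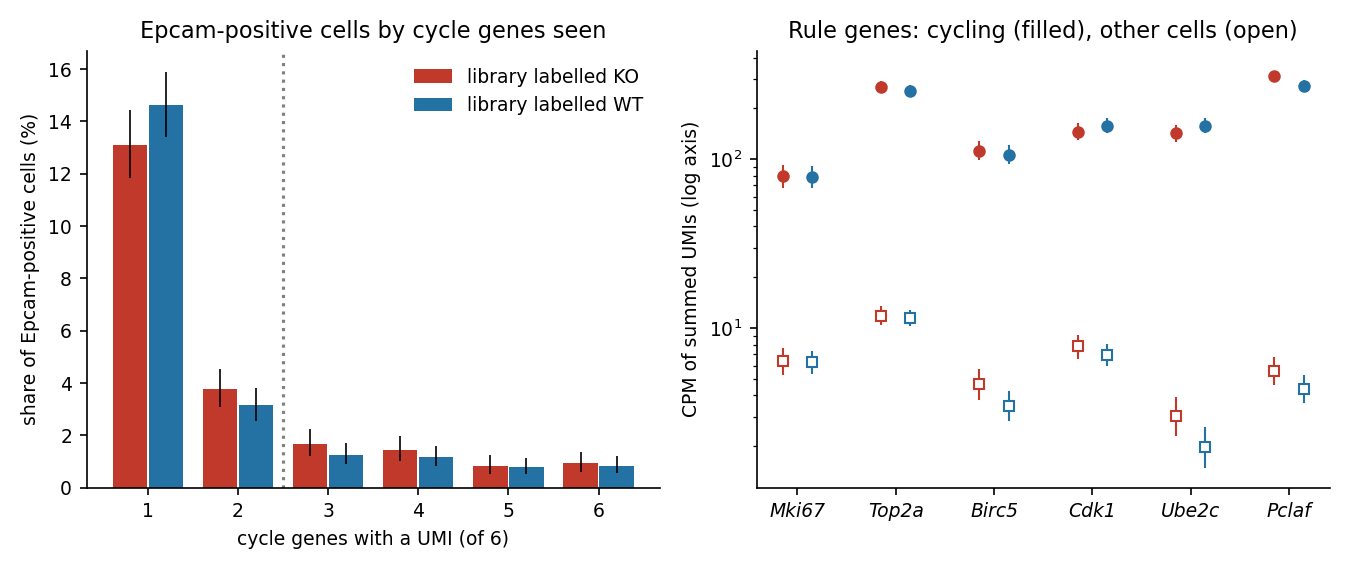
Left: share of Epcam-positive cells (%) by the number of the 6 proliferation genes with a UMI, for the libraries labelled KO and WT, with 95% Clopper-Pearson intervals and the membership limit as a dotted line. Right: CPM of the 6 genes (log axis) in cycling cells (filled) and other Epcam-positive cells (open), with 95% Poisson intervals: the libraries lie close together, and every filled point lies above every open point of its gene.

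The cells carried epithelial genes above the level of the endothelial cells without Epcam. All 131 and 129 cells have Epcam by the rule, and the keratins Krt8 and Krt18, which the rule did not use, had a UMI in 129 and 129 of the cells labelled KO and in 129 and 124 of those labelled WT. Among 7 epithelial genes the tight-junction gene Cldn3 differed most, with 90.6 CPM (KO) and 46.9 CPM (WT). The list of 7, which holds Epcam, summed to 3018 CPM (KO) and 2638 CPM (WT) in cycling cells, against 530 and 1038 CPM in the endothelial cells of the same libraries. The rule kept out cells with 3 of the 7 T cell genes, so low values of these follow from it. Among thymocyte genes that the rule did not use, Rag2 had 0 UMIs in both libraries, Ptprc, which marks blood cells, had 1 UMI in each, and Cd4 had 12 UMIs (KO) and 33 UMIs (WT). The whole list of 13 thymocyte genes summed to 26.2 CPM (KO) and 37.7 CPM (WT) in cycling cells, against 7821 and 5672 CPM in the cells that carried T cell genes without Epcam. A UMI in any of the 7 T cell genes of the rule occurred in 17 of 131 cells labelled KO (13.0%) and 12 of 129 cells labelled WT (9.30%).

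The 6 proliferation genes had nearly equal levels in both libraries, and since they chose the cells, their levels are a description. Mki67, a coat protein of mitotic chromosomes, had 79.1 CPM (KO) and 78.4 CPM (WT). Top2a, the topoisomerase that untangles sister chromatids, had 267 and 253 CPM. Birc5 (survivin), a subunit of the chromosomal passenger complex, had 113 and 106 CPM. Cdk1, the kinase that starts mitosis, had 146 and 158 CPM. Ube2c, the ubiquitin-conjugating enzyme of the anaphase-promoting complex, had 143 and 158 CPM. Pclaf, which binds the sliding clamp PCNA, had 309.9 and 273 CPM. In the same order of libraries, the other Epcam-positive cells had at most 11.9 and 11.5 CPM of any of the 6.

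The shares of cycling cells with a UMI were likewise close. Top2a was seen in 78.6% of KO-labelled and 79.8% of WT-labelled cells, and Mki67 in 56.5% and 58.9%. After thinning to 2000 UMIs, Top2a was seen in 35.4% and 34.9% and Mki67 in 16.2% and 15.5%. Endothelial cells without Epcam, which served as a gauge of free RNA, had a median of 2482 UMIs (KO) and 3314 UMIs (WT). Of these cells at most 2.84% in the library labelled KO and 0 of 50 in the library labelled WT had a UMI of any of the 6 genes.

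On mm10 the markers lie on chromosome 7 (Mki67, 135689784 to 135716361, minus strand), chromosome 11 (Top2a, 98992943 to 99024189, minus; Birc5, 117849251 to 117855743, plus), chromosome 10 (Cdk1, 69335146 to 69352938, minus), chromosome 2 (Ube2c, 164769898 to 164778822, plus) and chromosome 9 (Pclaf, 65890237 to 65903266, plus). Their promoters were read because genes of this class are known to share short control motifs. The letters TTTGAA form the core of the cell cycle homology region, CCAAT is a box often found near it, and GCGGGAA is a form of the E2F site. Each was searched on both strands in the 150 bases before the RefSeq start. Below are 4 windows of 150 bases (RefSeq, GRCm38.p6, given 5′ to 3′ on the strand of the gene), with TTTGAA or its complement TTCAAA and CCAAT or its complement ATTGG in capitals. They show both motifs together (Mki67, Top2a and the mitotic activator gene Cdc20) and a marker without either (Birc5).
Mki67 (chr7:135716380-135716529, minus): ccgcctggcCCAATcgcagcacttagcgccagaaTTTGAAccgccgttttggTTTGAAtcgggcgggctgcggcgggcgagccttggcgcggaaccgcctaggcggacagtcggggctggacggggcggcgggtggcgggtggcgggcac
Top2a (chr11:99024190-99024339, minus): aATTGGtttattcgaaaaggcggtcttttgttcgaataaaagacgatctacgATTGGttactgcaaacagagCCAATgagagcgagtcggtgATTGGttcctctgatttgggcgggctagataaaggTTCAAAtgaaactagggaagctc
Cdc20 (chr4:118437344-118437493, minus): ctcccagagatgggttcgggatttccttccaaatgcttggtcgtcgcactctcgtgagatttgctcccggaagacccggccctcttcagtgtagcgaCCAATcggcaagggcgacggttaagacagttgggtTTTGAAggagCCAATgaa
Birc5 (chr11:117849087-117849236, plus): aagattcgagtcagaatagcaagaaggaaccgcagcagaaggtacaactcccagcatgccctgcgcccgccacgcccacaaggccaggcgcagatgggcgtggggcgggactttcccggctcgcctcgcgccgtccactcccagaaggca

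Over the 6 markers, TTTGAA occurred in 4 and CCAAT in 5 of the windows, and GCGGGAA in 0. Of all 27025 genes with a promoter entry, 10.5%, 27.7% and 3.03% held them. A gene with several entries counted if any of its windows matched. The windows of Cdk1, Ube2c and Pclaf, which reach into the gene as GENCODE annotates it, are counted here. The Cdc20 window printed above also reaches into its annotated gene (118432901 to 118437352), and its last CCAAT lies inside that gene. Of 33 genes of a G2/M list with an entry in the promoter table, 8 (24.2%) held both TTTGAA and CCAAT in a window. Of 28 S phase genes 1 did (3.57%), and of all 27025 genes 2.63%. GCGGGAA showed the opposite division, in 10 of the 28 S phase genes (35.7%), 0 of the 33 G2/M genes and 3.03% of all genes with an entry. Among the genes at least 2-fold higher in cycling cells in both libraries, 353 had a window and 10.8% of these held both TTTGAA and CCAAT. Of the 12104 measured genes with a window, 2.16% did. A match is a run of letters and not a measured binding site, and no test was made. Ccna2, Hist1h2ap and Hist1h1b had no entry.

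The genes that most set cycling cells apart within each library were parts of the division machinery. Of 15788 genes with at least 50 UMIs in each library, 429 (2.72%) were at least 2-fold higher in cycling than in other Epcam-positive cells in both libraries, and 1798 (11.4%) were at least 2-fold lower. Since the cells were chosen by cycle genes, these counts describe them and test nothing. Hist1h1b, a linker histone made in S phase, had 72.5 CPM in cycling cells against 1.08 CPM in other cells of the library labelled KO, and 73.2 against 0.937 CPM in the library labelled WT. Ccna2 (cyclin A2), which pairs with Cdk2 and Cdk1, had 52.9 against 1.08 CPM (KO) and 56.5 against 0.750 CPM (WT). The core histone gene Hist1h2ap had 471 against 8.52 CPM (KO) and 539 against 16.2 CPM (WT). These 3 are among the 12 leading genes, which also hold Pbk, the mitotic kinase gene Plk1, the ribonucleotide reductase subunit Rrm2, Cdca3, Cdc20, Cep55, Hist1h2ae, Dlgap5 and Depdc1a. Histone genes of a cluster are near-identical copies, so their separate values are uncertain.

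By function, 30 of 36 measured S phase genes and 37 of 39 G2/M genes were past 2-fold higher in both libraries, and none was past 2-fold lower. Of 23 genes that license and run replication forks 17 were, among them Mcm5, a subunit of the replicative helicase, with 36.2 against 6.78 CPM (KO) and 32.9 against 5.25 CPM (WT). Of 12 genes of nucleotide synthesis 8 were, led by Rrm2 and by Tyms, the thymidylate synthase, with log2 ratios of 3.49 (KO) and 4.26 (WT). The kinetochore and spindle checkpoint gave 17 of 19 and the mitotic kinesins and spindle genes 15 of 16. The centromeric histone Cenpa had 78.7 against 5.65 CPM (KO) and 78.8 against 4.50 CPM (WT). Of 14 histone genes 10 passed, the linker histone Hist1h1c being among the other 4 with log2 ratios of -0.51 (KO) and -0.73 (WT).

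The anaphase-promoting complex, G1 and ribosome lists had smaller parts past the fold. Of 16 subunits and regulators of the anaphase-promoting complex 3 were past 2-fold: the activator Cdc20, the E2 enzyme Ube2s with 509 against 174 CPM (KO) and 491 against 141 CPM (WT), and the inhibitor Fbxo5. Its core subunit Cdc27 had 41.5 against 42.1 CPM (KO) and 37.7 against 41.4 CPM (WT). Among 17 G1 cyclins, kinases and regulators 10 passed. Cyclin D2 (Ccnd2), which links growth signals to the cycle, had 614 against 304 CPM (KO) and 706 against 303 CPM (WT), and its partner Cdk4 had 194 against 71.6 and 169.5 against 49.8 CPM. Cyclin D3 (Ccnd3) lay the other way, with 32.4 against 44.4 CPM (KO) and 23.7 against 47.0 CPM (WT). Of 20 genes of ribosome assembly 6 passed, with the nucleolar protein Ncl at 841 against 368 CPM (KO) and 937 against 354 CPM (WT).

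None of 14 cell cycle inhibitors was past 2-fold higher in cycling cells of both libraries, and 1 was past 2-fold lower. That was the anti-proliferation gene Btg2, with 102 against 267 CPM (KO) and 85.0 against 262 CPM (WT). Cdkn1a (p21), which blocks cyclin-dependent kinases, had 150.2 against 245 CPM in the library labelled KO and 93.7 against 285 CPM in the library labelled WT. Its log2 ratio passed the fold in the library labelled WT (-1.61) and not in the library labelled KO (-0.71).

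Mimetic programmes, in which mTECs copy peripheral cell types, were lower in cycling than in other Epcam-positive cells for several lists but not for all. Against 11.4% of all genes, all 6 tuft markers, 5 of 6 keratinocyte markers, 4 of 6 neuroendocrine markers and 6 of 18 mimetic lineage transcription factors were past 2-fold lower in both libraries. Of 6 microfold markers 3 were. Of 6 ciliated cell markers 2 were past 2-fold higher and 1 was past 2-fold lower. In cycling cells with 0 Aire UMIs the 6 summed to 466 CPM (KO) and 677 CPM (WT). In those with at least 2 Aire UMIs they summed to 53.9 and 35.9 CPM. The 12 genes named as lowest had 0 UMIs in the cycling cells of both libraries. Genes with such a 0 tie, and these 12 come first by name, so they need not be the strongest. Prss1 and Mup4 also had 0 UMIs there. Cstdc5 had 221 UMIs (KO) and 622 UMIs (WT) in the other cells, which made it at least 7.93-fold and at least 17.7-fold lower in cycling cells, with 3 counts per library as the limit of a count of 0. 1810065E05Rik was at least 10.1-fold lower (KO) and at least 9.21-fold lower (WT). Of the 1798 lower genes 222 had a 0, and with those set at their bounds 1758 remained past the fold. Beside cells with at least 3 Aire UMIs that were not cycling, fewer mimetic genes were past 2-fold lower in both libraries. They were 3 of 5 measured tuft, 0 of 3 keratinocyte, 1 of 4 neuroendocrine and 1 of 6 microfold markers. Of 11 mimetic lineage transcription factors 0 were, against 8.33% of all 12680 genes measured there. Of 4 ciliated markers 2 were past 2-fold higher and 0 lower.

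Cycling cells were spread along the cell cycle. They were ordered by the share of G2/M-list UMIs among their S-list and G2/M-list UMIs and cut into terciles of 44, 44 and 43 cells labelled KO and 43, 43 and 43 cells labelled WT. This is a range cut from a score and not a set of cell types, and the gradients of the 2 lists follow from it. The share spanned 24.3 to 100% of list UMIs (KO) and 20.6 to 100% (WT), with medians of 80% and 73.6%. The summed S list had 2879.9, 1326 and 480.3 CPM from the lowest to the highest tercile of the library labelled KO and 2717, 1437 and 729 CPM of the library labelled WT. The summed G2/M list had 2583, 4790.4 and 7488 CPM (KO) and 1945, 4352 and 8073 CPM (WT).

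Genes outside the lists differed in where they were highest. Ube2c, one of the proliferation genes of the rule, had 32.9, 158 and 281 CPM (KO) and 20.6, 116 and 390.5 CPM (WT) from the lowest to the highest tercile. Pclaf ran the other way, with 432, 323 and 113 CPM (KO) and 341, 274 and 186 CPM (WT). Hist1h2ap was highest in the middle tercile, with 439, 797 and 57.3 CPM (KO) and 291, 852 and 403 CPM (WT). In the highest tercile its level in the library labelled WT was therefore above that in the library labelled KO, a difference that was not tested.

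Aire varied little along the order in the library labelled KO, with 397, 442 and 414 CPM and intervals that overlap. In the library labelled WT it had 647, 508 and 489 CPM, and the lowest tercile lay above the other two. Fezf2 had 277, 314 and 408 CPM (KO) and 498, 319 and 392.1 CPM (WT), so the libraries differed most in the lowest tercile. Foxp1 had 238, 223 and 164 CPM (KO) and 118, 142 and 137 CPM (WT). Ccl21a had 2071, 587 and 1273 CPM (KO) and 558, 306 and 320 CPM (WT), with the highest level in the S-rich tercile of each library. Cyclin D2 (Ccnd2) was likewise highest there, with 722, 619 and 447 CPM (KO) and 968, 575 and 565 CPM (WT). Depth was not even along the order, with median UMIs of 16149, 16296.5 and 12845 (KO) and 16629, 20890 and 14296 (WT), and its part was not tested.

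**Figure D2:**
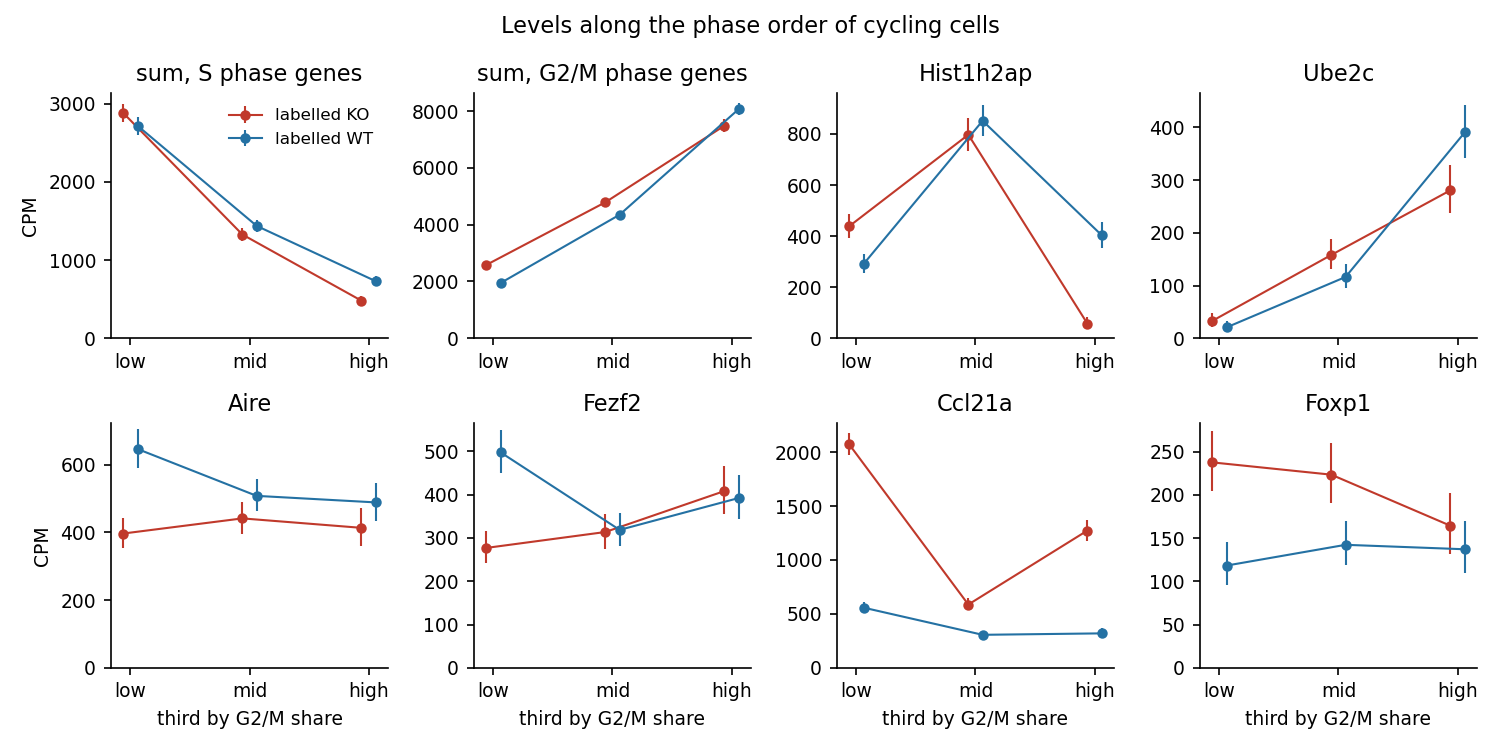
CPM (y axes) in terciles of the share of G2/M-list UMIs (x axes, low to high) for the summed S and G2/M lists and 6 genes, with the libraries labelled KO in red and WT in blue and 95% Poisson intervals. Hist1h2ap is highest in the middle tercile, while Ccl21a is higher in the library labelled KO in every tercile.

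The cycling cells were not of 1 kind: most carried Aire, and a minority had none. Aire UMIs per cell had a median of 4 and a highest value of 41 in the library labelled KO, against 7 and 50 in the library labelled WT. At least 2 Aire UMIs were found in 88 of 131 cells labelled KO (67.2%, 58.4 to 75.1) and in 104 of 129 cells labelled WT (80.6%, 72.7 to 87.0). Exactly 1 Aire UMI was found in 13 cells labelled KO and 8 labelled WT. The remaining 30 cells labelled KO (22.9%, 16.0 to 31.1) and 17 labelled WT (13.2%, 7.87 to 20.3) had 0. The log2 ratio of the Aire-zero shares was 0.80, and its interval of -0.11 to 1.75 included 0.

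Depth and free RNA bear on this division. Aire-positive cells had medians of 15651 UMIs (KO) and 17813.5 UMIs (WT), against 9031.5 and 9953 UMIs in Aire-zero cells. Aire had a UMI in 77.1% of cycling cells labelled KO and 86.8% labelled WT, and in 16.3% and 20% of the endothelial cells. After thinning to 2000 UMIs these shares were 47.7% and 61.2% of cycling cells and 13.8% and 25% of endothelial cells. How far depth set the Aire-zero group was not tested.

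High Ccl21a counts were more frequent in Aire-zero than in Aire-positive cycling cells, most clearly in the library labelled KO. At least 10 Ccl21a UMIs were found in 24 of 30 Aire-zero cells labelled KO (80%) and in 7 of 17 labelled WT (41.2%), although these cells were the shallower ones. Among Aire-positive cells the counts were 12 of 88 (13.6%, KO) and 11 of 104 (10.6%, WT). Over all cycling cells the share was 29.8% (22.1 to 38.4) in the library labelled KO and 16.3% (10.4 to 23.8) in the library labelled WT. The log2 ratio of these shares was 0.87 (0.07 to 1.71). In endothelial cells without Epcam a list of 7 Ccl21 mTEC markers, Ccl21a included, summed to 648 CPM (KO) and 889 CPM (WT). The list summed to 1236 and 924 CPM in Aire-positive and to 7475 and 3303 CPM in Aire-zero cycling cells. The part of free RNA in the Ccl21a counts was not tested.

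**Figure D3:**
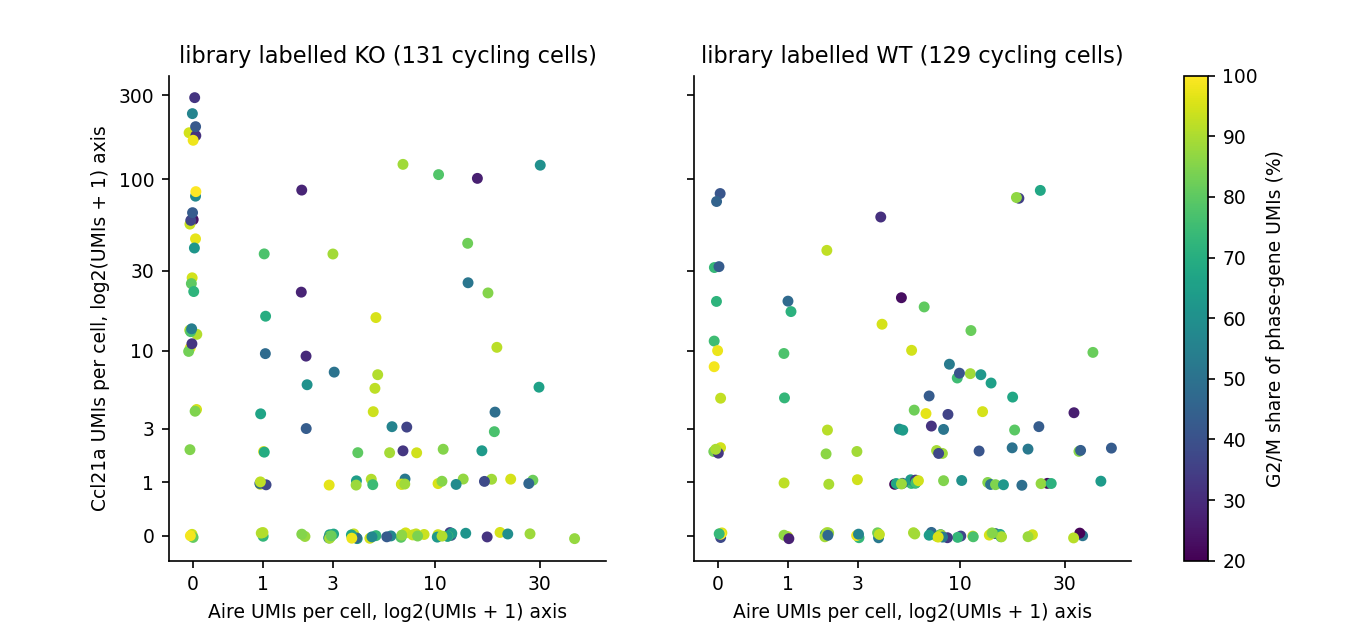
Ccl21a UMIs (y axis) against Aire UMIs (x axis) in each cycling cell of the libraries labelled KO (left) and WT (right), both on log2(UMIs + 1) axes with slight random shifts, coloured by the share of G2/M-list UMIs (%). Cells with 0 Aire UMIs reach the highest Ccl21a counts in the library labelled KO, and cells of every colour occur on both axes.

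Aire-positive cycling cells had higher Fezf2 and Cd40 and lower Ccl21a and Krt5 than Aire-zero cycling cells. Of 5667 genes with at least 50 UMIs in each library, 317 (5.59%) were at least 2-fold higher in the Aire-positive cells in both libraries and 226 (3.99%) at least 2-fold lower. Of the 317, 63 had a 0 in Aire-zero cells, and 304 remained with those set at their bounds. Aire itself chose the groups, so its own difference is fixed.

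Besides Aire, 5 of the other regulators of mTEC maturation were past 2-fold higher, of 17 measured with Aire, and none was past 2-fold lower. Fezf2 had 379 CPM in Aire-positive against 100.2 CPM in Aire-zero cells labelled KO and 426 against 145 CPM in those labelled WT. Cd40, the receptor for T cell help, had 121 against 11.8 CPM (KO) and 148 against 46.3 CPM (WT). Cd80, a co-stimulatory ligand, had 77.7 against 32.4 CPM (KO) and 100.2 against 34.7 CPM (WT). Tnfrsf11b, the decoy receptor osteoprotegerin, had 94.4 against 14.7 CPM (KO) and 91.2 against 5.78 CPM (WT). Of 12 chemokine and co-stimulation genes 4 were higher (Ccl25, Icosl, Cd70 and Tnfsf9), and of 11 genes of MHC class II presentation 3 were (H2-Aa, H2-DMb2 and Ctss).

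The 12 genes named as highest in Aire-positive cells all had 0 UMIs in Aire-zero cells of both libraries, so they tie. In Aire-positive cells Lyz1, a Paneth cell lysozyme, had 102 UMIs in 25% of cells labelled KO and 125 UMIs in 26.0% of those labelled WT. Gm29461 had 188 UMIs in 56.8% of cells (KO) and 206 UMIs in 46.2% (WT), and the glucose transporter gene Slc2a6 had 53 UMIs in 38.6% and 53 in 39.4%. Gast, the gene of the stomach hormone gastrin, had 95 UMIs in 6.82% of cells (KO) and 76 UMIs in 6.73% (WT). The others were Cxcl13, Cytl1, Gm36899, Gm45184, Gm49853, Lypd2, Mt4 and Mucl2. All 113 UMIs of Mt4 in the library labelled KO lay in 1 cell. In the library labelled WT the lower end of the log2 interval was 0.26 for Slc2a6, 0.34 for Lypd2 and 2.25 for Gm29461. That end was 0.58 for Gm45184, 0.67 for Mt4, 0.69 for Cytl1, 0.79 for Gast and 0.87 for Gm49853. For these genes and for Slc2a6 and Lypd2, counting error thus leaves a ratio below 2-fold possible there.

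Of 7 measured Ccl21 and basal genes 2 were past 2-fold lower in Aire-positive cells, Ccl21a and Krt5. Ccl21a had 517 CPM in Aire-positive against 5583 CPM in Aire-zero cells labelled KO and 282 against 1643 CPM in those labelled WT. Krt5, a basal keratin, had 157 against 734 CPM (KO) and 144 against 983 CPM (WT). Apoe, a lipid carrier, had 107 against 728 CPM (KO) and 43.4 against 272 CPM (WT). The growth factor gene Ptn had 8.35 against 259 CPM (KO) and 22.4 against 133 CPM (WT). Ccl21a, Apoe and Ptn were among the 12 genes ranked lowest, with Lifr, Nhs, Ifi202b, Dynlrb2, Igfbp5, Tbc1d9, Zfp608, Foxj1 and Gm14064. Some rest on few Aire-zero cells. Dynlrb2 was seen in 6.67% of the 30 labelled KO and 17.6% of the 17 labelled WT, and Gm14064 in 10% and 17.6%. Foxj1 was seen in 16.7% of Aire-zero but 20.5% of Aire-positive cells labelled KO. Igfbp5 was seen in 17.6% of Aire-zero but 22.1% of Aire-positive cells labelled WT. Interferon response genes were lower in 3 of 11 cases (Isg15, Irf7 and Ifi27l2a), and G2/M genes in 5 of 31.

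Cycling cells were also set beside 543 KO-labelled and 832 WT-labelled cells with at least 3 Aire UMIs that were not cycling, the class nearest to the Aire-positive majority. Of 12680 genes measured, 344 (2.71%) were at least 2-fold higher in cycling cells in both libraries and 1056 (8.33%) at least 2-fold lower. The division genes led again. Of 10 Aire-linked self-antigens 8 were lower in cycling cells. The calcium-binding protein gene S100a9 had 102 against 430.1 CPM (KO) and 85.4 against 414 CPM (WT). Ins2, an insulin gene, had 22.4 against 104 CPM (KO) and 16.2 against 97.3 CPM (WT), and in cycling cells its UMIs came from 5 cells labelled KO and 1 labelled WT. Mup4, a major urinary protein, had 0 UMIs in cycling cells against 67 and 144 UMIs, at least 7.28-fold lower (KO) and at least 10-fold lower (WT). The milk protein Csn2 had 402 against 1175 CPM (KO) and 718 against 1257 CPM (WT) and passed the fold in the library labelled KO alone. The Aire-high class was chosen by Aire and the cycling cells were not. With the Aire-positive cycling cells alone, 277 of 12429 genes (2.23%) were at least 2-fold higher than in Aire-high cells in both libraries and 956 (7.69%) at least 2-fold lower.

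Fezf2-linked antigens were lower in 4 of 11 cases (Apoc3, Calb1, Fabp9 and Resp18), and none was past 2-fold higher. Fezf2 had 324 against 425 CPM (KO) and 399.5 against 540.2 CPM (WT), short of the fold. The co-stimulatory gene Cd86 had log2 ratios of -1.86 (KO) and -1.91 (WT) and the chemokine genes Ccl22 and Ccl25 of -2.80 and -1.44 (KO) and -1.83 and -2.13 (WT). MHC class II genes passed in 0 of 11 cases, with H2-Aa at 2548 against 4227 CPM (KO) and 2929 against 4485 CPM (WT). Insm1, a neuroendocrine lineage regulator, lay the other way, with 210.2 against 171 CPM (KO) and 269 against 195 CPM (WT). These genes were named after their values were seen.

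Between libraries, cycling cells labelled KO and labelled WT were close over most genes. Of 9462 genes with at least 50 UMIs over both, 831 (8.78%) were past 1.5-fold higher in the library labelled KO and 597 (6.31%) past 1.5-fold lower, together 15.1%. The median log2 ratio of all genes was 0.02, with 5024 of the 9462 genes above 0 and 4438 below. In other Epcam-positive cells the same rule gave 5.75% higher and 7.02% lower of 18566 genes. Restricting the comparison to Aire-positive cycling cells, an alternative chosen after seeing the data, gave 7.73% higher and 7.44% lower of 8535 genes.

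The genes whose intervals lay farthest from 0 came mostly from single cells. Of the 15 leading genes in each direction, all 15 higher and 14 of 15 lower ones had at least 50% of the UMIs of their higher library in 1 cell. Defa21, a Paneth cell defensin, had 244 UMIs in the library labelled KO, all in 1 cell, and 0 in the library labelled WT. Defa29, another defensin, had 0 UMIs in the library labelled KO and 181 in 1 cell labelled WT. Prss2, a pancreatic trypsinogen, had 214 UMIs in 5 cells labelled KO, 207 of them in 1 cell, against 7 UMIs in 2 cells labelled WT. Pth, parathyroid hormone, had 1 UMI (KO) and 140 UMIs (WT), 138 of them in 1 cell. Each of these differences rests on 1 cell.

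The remaining leading genes with higher values in the library labelled KO were 2310039L15Rik, Pate6, Gm20456, Spink7, P2rx7, Wbp2nl, Rad21l, Nlrp12, Gm32916, Gm28578, Pkd1l2, Svs4 and Gm44995, seen in 1 to 7 cells. Those with lower values were Gm38405, Gm11496, Mcpt2, Pate11, Mmrn1, Gm5941, Gm43409, Pyy, Gm29638, Gm32027, Dppa5a, Mctp1 and Tmbim7. Mctp1, a calcium-sensing membrane protein, was the only one of the 30 without such a cell. It had 32 UMIs in 18 cells labelled KO and 510 UMIs in 37 cells labelled WT, 196 of them in 1 cell.

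Such single-cell peaks were as common in both libraries. Of 6440 genes with at least 50 UMIs in cycling cells labelled KO, 132 (2.05%) had at least 50% of their UMIs in 1 cell, and of 6700 genes labelled WT, 129 (1.93%) did. The peaks lay in 57 of 131 cells labelled KO and 55 of 129 labelled WT. Of the peaks, 111 of 132 (KO) and 119 of 129 (WT) lay in Aire-positive cells and 14 and 8 in Aire-zero cells. Aire-positive cells made up 67.2% and 80.6% of the cycling cells. They held 1557575 of 2097666 UMIs (KO) and 2006065 of 2282846 UMIs (WT), and the part of depth was not tested. Examples chosen after their values were seen are Bpifa1, an airway secretory protein, with 191 of 204 UMIs in 1 cell labelled KO, and the gut hormone gene Pyy with 158 of 242 UMIs in 1 cell labelled WT.

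Genes were also ranked with the cell holding most UMIs of each gene left out, a ranking chosen after seeing the data. Several leading genes were still seen in few cells. Hydin, on the higher side, was seen in 10 cells labelled KO and 5 labelled WT, and Nrg3, on the lower side, in 3 and 16. Others, Ccl21a and Apoe among them, were seen in many cells. Ccl21a had 1323 CPM in 85 cells labelled KO against 396 CPM in 83 cells labelled WT. Its log2 ratio was 1.74 (1.63 to 1.85), and 1.73 without its top cells. In Aire-positive cells alone its log2 ratio was 0.88, and in other Epcam-positive cells 0.83. Apoe had 202 CPM (KO) against 59.6 CPM (WT), with 1.76 (1.48 to 2.05) and 1.85 without its top cells, and 1.31 in Aire-positive cells. The C-reactive protein gene Crp had 53 UMIs in 26 cells labelled KO and 7 UMIs in 7 cells labelled WT. Spink1, a trypsin inhibitor, had 616 UMIs (KO) and 55 UMIs (WT), in 18 cells of each, with 330 of the KO-labelled UMIs in 1 cell.

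On the lower side, Twsg1, a secreted modulator of BMP signals, had 91 UMIs in 53 cells labelled KO against 753 UMIs in 46 cells labelled WT. Of its UMIs in the library labelled WT, 45.8% lay in 1 cell. Its log2 ratio was -2.93, or -2.18 without its top cells. The DNA repair gene Fancd2 had 25 UMIs in 13 cells labelled KO against 399 UMIs in 22 cells labelled WT, 203 of them in 1 cell. The RNA 1600010M07Rik had 348 CPM (KO) against 934 CPM (WT), with log2 ratios of -1.42, and of -2.01 without its top cells. In other Epcam-positive cells Twsg1 and Fancd2 lay the other way, with log2 ratios of 0.42 and 0.51.

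The S phase and G2/M lists had medians near 0 over all cycling cells. The 34 measured S phase genes had a median log2 ratio of KO over WT of 0.01 (19 above 0 and 15 below), and the 38 G2/M genes 0.02 (21 above and 17 below), against 0.02 for all genes. In Aire-positive cells the medians were 0.01 for S phase and -0.12 for G2/M genes. Kinetochore genes had -0.09, and -0.23 in Aire-positive cells with 3 above 0 and 13 below. Mitotic kinesins and spindle genes had 0.12, and -0.07 in Aire-positive cells. Few members passed 1.5-fold: Ect2, which guides the cleavage furrow, had 71.0 CPM (KO) against 111 CPM (WT), and Ckap2, a spindle protein, had 54.8 against 33.7 CPM. Chaf1b, a subunit of the chromatin assembly factor that follows the replication fork, had 14.3 CPM in 19 cells labelled KO against 49.9 CPM in 28 cells labelled WT, a log2 ratio of -1.80 (-2.44 to -1.21), and of -2.62 in Aire-positive cells. Kif22, a chromosome-arm kinesin, had 13.8 against 22.3 CPM (-0.69, -1.40 to -0.01).

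Cell cycle inhibitors and histones had medians above 0. Of 14 inhibitors 10 were above 0 and 5 were past 1.5-fold higher, against 8.78% of all genes, with a median of 0.29. Cdkn1a had 150.2 CPM (KO) against 93.7 CPM (WT), a log2 ratio of 0.68 (0.42 to 0.94). Cdkn2d (p19), an inhibitor of Cdk4 and Cdk6, had 28.1 against 13.1 CPM (1.10, 0.44 to 1.78), and Ccng1 (cyclin G1) 34.8 against 21.5 CPM (0.70, 0.16 to 1.25). Cdkn1c (p57) had 129 against 31.5 CPM, but 53% of its UMIs in the library labelled KO came from 1 cell. Of 16 histone genes 14 were above 0 with a median of 0.30, while the abundant Hist1h2ap was below 0 with 471 against 539 CPM (-0.19).

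No maturation regulator was past 1.5-fold. Of 18 measured, 14 were below 0 with a median of -0.13, while in Aire-positive cells 8 were above 0 and 10 below. Aire had 418 CPM (KO) against 550.2 CPM (WT), a log2 ratio of -0.40 (-0.52 to -0.27), and -0.17 in Aire-positive cells, which were chosen by it. Fezf2 had 324 against 399.5 CPM (-0.30, -0.45 to -0.16), and -0.17 in Aire-positive cells. The interferon regulatory factors Irf4 and Irf8 had -0.57 and -0.53, Cd40 -0.51 and Cd80 -0.41. Of 11 genes of MHC class II presentation 10 were below 0 with a median of -0.18, led by H2-Ob (-0.60) and by the class II transactivator Ciita, with 99.2 against 148 CPM (-0.58, -0.83 to -0.32). Of 18 genes of ribosome assembly 14 were below 0 with a median of -0.13, which was 0.01 in Aire-positive cells.

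Foxn1, the master regulator of thymic epithelium, had 38.1 CPM in 53 cells labelled KO against 81.5 CPM in 77 cells labelled WT, a log2 ratio of -1.10 (-1.49 to -0.71). A UMI was found in 40.5% of cycling cells labelled KO and 59.7% labelled WT, and in 2.13% and 10% of endothelial cells. In Aire-positive cycling cells it had 38.5 against 85.2 CPM, in Aire-high cells that were not cycling 49.9 against 105 CPM, and in Ccl21a-high cells that were not cycling 31.2 against 32.2 CPM. Other genes of the cortical list pointed both ways. Tbata had 175 against 385 CPM (-1.13), the protease gene Ctsl 433 against 189 CPM and the chemokine Cxcl12 48.1 against 17.5 CPM (1.46). Among 18 heat shock and immediate early genes the median was 0.04 and 2 were past 1.5-fold lower, the chaperone genes Hspa1a and Hspa1b. Hspa1b had 153 against 355 CPM.

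**Figure D4:**
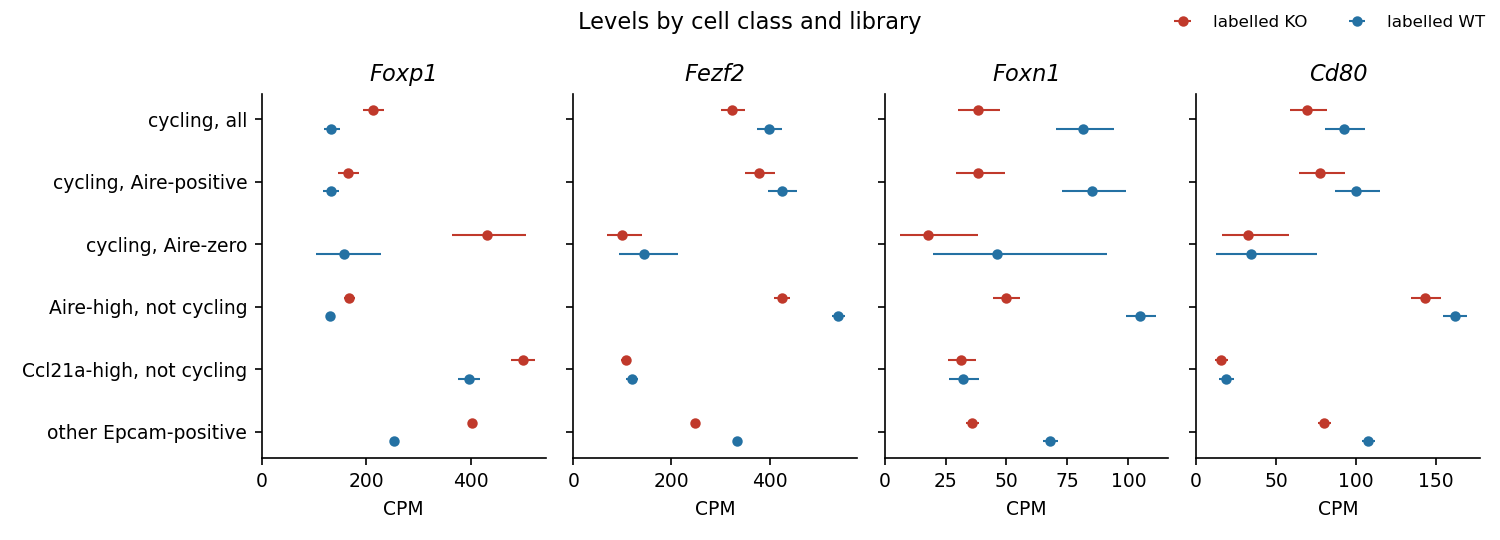
CPM (x axes) of Foxp1, Fezf2, Foxn1 and Cd80 in 6 classes of cells, with the library labelled KO (red) above the library labelled WT (blue) and 95% Poisson intervals. Foxp1 is higher and Foxn1 lower in the library labelled KO in all cycling cells and in the Aire-positive ones, while for Foxn1 the intervals overlap in Aire-zero and Ccl21a-high cells.

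Chemokine and co-stimulation genes had a median of -0.32, with 11 of 14 below 0, and a median of 0.75 when cells were thinned before the rule. Ccl22, a ligand for maturing T cells, had 10 CPM (KO) against 23.7 CPM (WT), the co-inhibitory ligand gene Pdcd1lg2 10.5 against 24.5 CPM and Tnfsf9 27.6 against 45.6 CPM. Ccl20 had 39.1 against 155 CPM, with 44% and 52% of its UMIs in 1 cell of each library. Ccl19, which draws Ccr7-bearing thymocytes to the medulla, lay the other way with 1106 against 746 CPM (0.57, 0.48 to 0.66), and it had the same ratio in Aire-positive cells (0.57).

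Several basal and interferon genes were higher in the library labelled KO, together with the larger Aire-zero share, whose part was not tested. Of 12 Ccl21 and basal genes 8 were above 0 with a median of 0.37, which was -0.46 when cells were thinned before the rule. The surface protein Pdpn had 47.2 CPM (KO) against 15.3 CPM (WT), a log2 ratio of 1.62 (1.05 to 2.22) that was 0.81 in Aire-positive cells. The basal regulator Trp63 had 92.0 against 57.4 CPM (0.68, 0.35 to 1.01). Of 13 interferon response genes 10 were above 0 with a median of 0.54, and in Aire-positive cells alone the median was 0.07. Ifi27l2a had 1412 against 671 CPM (1.07, 0.98 to 1.16) and Bst2, an antiviral tether, 288 against 144 CPM. Their log2 ratios in Aire-positive cells were 0.51 and 0.43. Of 11 genes of cholesterol synthesis 8 were above 0, with the feedback gene Insig1 at 42.0 against 16.2 CPM (1.37, 0.80 to 1.97).

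Markers of other cell types moved with these differences. The endothelial list of 6 genes summed to 158 CPM in cycling cells labelled KO and 88.9 CPM in those labelled WT, and to 135 and 78.4 CPM in the other Epcam-positive cells. All 4 of its measured members were above 0, and none of the 6 was at 0 UMIs, with Pecam1 at 58.6 against 42.1 CPM and Cdh5 at 30.5 against 12.7 CPM. The libraries held 141 and 50 endothelial cells, labelled KO and WT. The fibroblast list summed to 52.4 CPM (KO) and 25.4 CPM (WT) in cycling cells and to 73.4 and 62.1 CPM in the others. The pericyte list summed to 396 and 284 CPM in cycling cells and to 597 and 536 CPM in the others. The fibroblast gene Pdgfra was at 1 UMI (KO) and 0 UMIs (WT). Their part in the differences was not tested.

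Self-antigen lists had no common direction. Of 16 Aire-linked antigens 6 were measured, 5 of them above 0, with a median of 0.36, which was -0.69 when cells with 2 proliferation genes were let in. The summed list lay the other way, with 1062 CPM (KO) against 1219 CPM (WT), a log2 ratio of -0.20 (-0.28 to -0.12). Csn2 was below 0, with 402 CPM in 81 cells labelled KO against 718 CPM in 84 cells labelled WT (-0.84, -0.96 to -0.72). Pcp4 was above it, with 232 UMIs in 12 cells labelled KO against 47 UMIs in 9 cells labelled WT. Of 12 Fezf2-linked antigens 8 were measured, 5 above 0, with a median of 0.21. Ttr had 79 UMIs (KO) against 1 UMI (WT), nearly all from 1 cell, and Fabp7 had 33 UMIs in 16 cells labelled KO against 83 UMIs in 18 cells labelled WT (-1.21, -1.84 to -0.61).

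**Figure D5:**
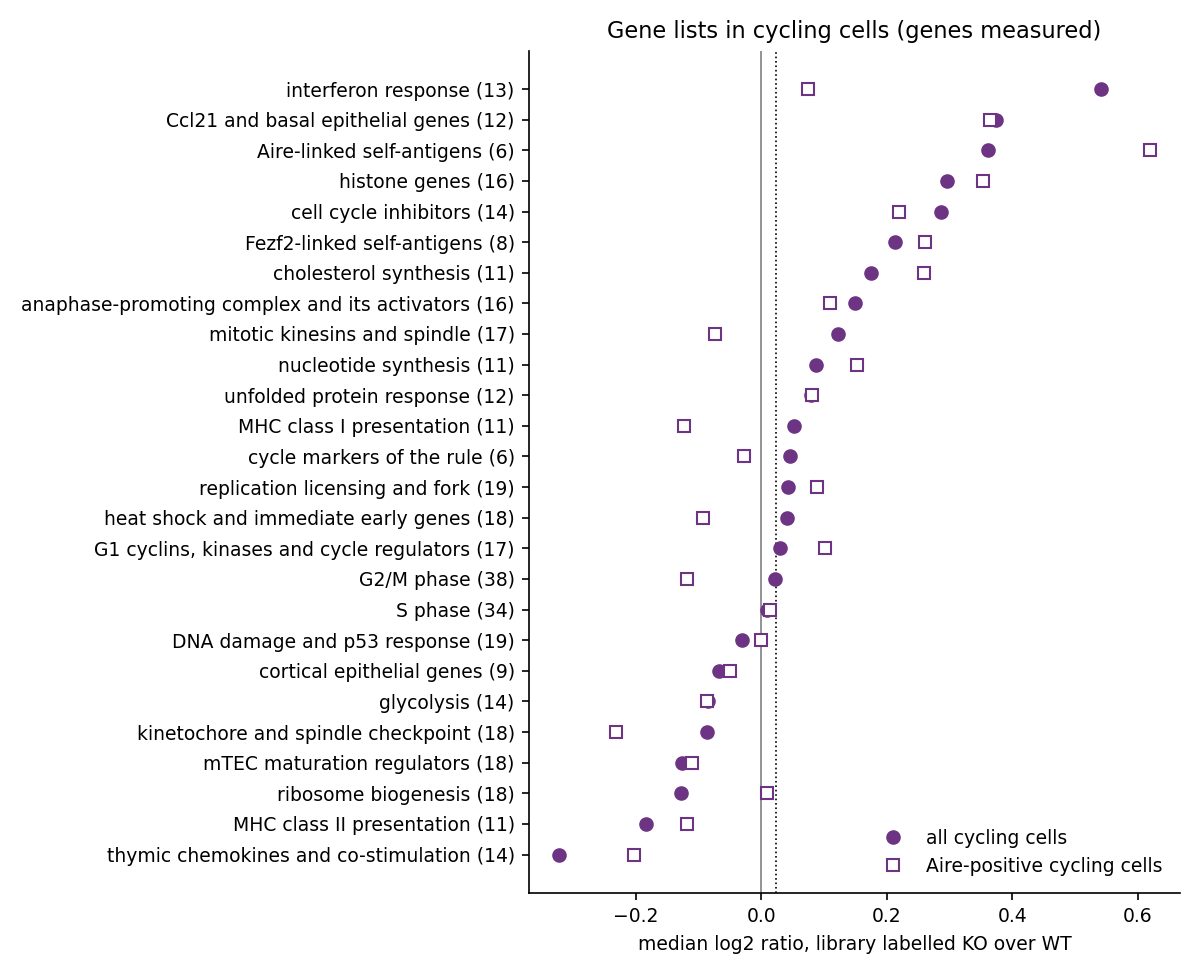
Median log2 ratio of KO-labelled over WT-labelled cells (x axis) for the gene lists with at least 6 genes measured, their number in brackets, in all cycling cells (filled) and in Aire-positive cycling cells (open). The dotted line marks the median of all genes, 0.02. Interferon response genes have the highest median over all cycling cells, 0.54, and lie at 0.07 in Aire-positive cells.

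The Foxp1 ratio also differed between kinds of cycling cell. Aire-positive cells had 164 CPM (KO) against 132 CPM (WT), Aire-zero cells 430.2 against 156 CPM, and cells with 1 Aire UMI 229 against 115 CPM (46 and 12 UMIs). Outside the cycle, Aire-high cells had 167 against 131 CPM and all other Epcam-positive cells 403 against 253 CPM. The log2 ratio was 0.32 in Aire-positive cycling cells and 0.35 in Aire-high cells that were not cycling. Of its relatives, Foxp4 had 67.2 CPM (KO) against 103 CPM (WT), -0.62 (-0.93 to -0.31). Foxp2 had 37 against 15 UMIs, with 57% and 67% of them in 1 cell of each library. Foxp3 had 0 UMIs in both libraries, where a count of 0 allows up to 3 counts.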

How the data were processed

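The authors deposited 1 matrix of raw UMI counts per library, not normalized, over 32285 genes. Per the file headers the software was Cell Ranger 7.0.1. Cell Ranger, Seurat and the build mm10 are named in the submitters' processing notes, without a role for each. The sources used here do not say how barcodes were kept or whether intronic reads counted.

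Groups were taken from the titles. For each class the UMIs of its cells were added up and scaled to a common total, which gives CPM. Intervals at 95% are exact Poisson for levels, exact binomial conditional on the sum for ratios and Clopper-Pearson for shares. UMIs limit the precision, and intervals and the limit of 3 counts for a count of 0 cover counting error only. A gene counted as measured with at least 50 UMIs, over both libraries between libraries and in each library within libraries. The calls were 1.5-fold between libraries and 2-fold within both libraries. Thinning drew 2000 UMIs per cell without replacement. The ratio script was tested on simulated data. These were Poisson counts of library sums without separate cells, so they do not cover genes whose UMIs lie mostly in 1 cell.

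The members and the gene lists were chosen with earlier results of these data known. The genes named are the 6 markers, Foxp1, Fezf2 and Aire, and the 15 genes per direction with the interval farthest from 0 between libraries. The 12 genes per direction with the largest ratio of the smaller library were named within libraries. Genes with 0 UMIs in a class in both libraries tied there and were taken in order of name. From each list up to 4 members with the largest ratio and the member with the highest level were taken. Mitochondrial, ribosomal protein, haemoglobin, Xist and Y-linked genes were left out of the rankings. Any other gene was named after its values were seen.

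Doublets were searched for with the scrublet method in scanpy 1.11.5, which called 0 cells in either library and is taken not to have worked, so none were removed. The 103 (KO) and 130 (WT) cells with the highest scores were left out as an alternative. Positions came from GENCODE M21 on mm10. Of 40 genes named there, 11 overlap another gene on the same strand and 20 on the opposite strand, so their UMIs may be shared. Promoter sequences are RefSeq's (GRCm38.p6). Python 3.11.15, numpy 2.4.6, scipy 1.17.1, pandas 2.3.3 and matplotlib 3.10.9 were used.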

Additional observations from a re-analysis of the deposited data

Results flagged for a closer look

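Of 140 named or listed genes examined, 4 had a ratio of KO over WT past 1.5-fold in cycling cells and a ratio of the opposite sign in other Epcam-positive cells, with neither interval including 0. Each had under 25% of the UMIs of its higher library in 1 cell, and the difference between the classes was not tested. The share of all measured genes that meet this rule was not counted, so the 4 cannot be set against it. Chaf1b had a log2 ratio of -1.80 in cycling cells (14.3 CPM labelled KO, 49.9 CPM labelled WT) and 0.45 in the others (9.91 and 7.24 CPM). Kif22 had -0.69 in cycling cells (13.8 and 22.3 CPM) and 0.44 in the others (5.18 and 3.82 CPM). Both of its intervals, -1.40 to -0.01 and 0.03 to 0.85, end close to 0. Ccng1 had 0.70 in cycling cells (34.8 and 21.5 CPM) and -0.16 in the others (34.7 and 38.7 CPM), where its interval was -0.30 to -0.02. Cdkn1a had 0.68 in cycling cells (150 and 93.7 CPM) and -0.22 in the others (245 and 285 CPM).

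Outside the cell filter, 5 barcodes of the library labelled KO had a UMI in at least 3 of the 6 proliferation genes, of 693 that failed, and the library labelled WT had 3 of 920. These cells were in no comparison. Inside the filter, 2 KO-labelled and 1 WT-labelled cells with these genes were left out for T cell genes, and 3 and 1 for lack of Epcam.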

How the results depend on the processing

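No paired analysis was possible because each group is 1 library, whose number was assigned and pairs nothing. For the same reason no library could be left out. The log2 ratio of the share of cycling cells ran from 0.05 to 0.29 over 7 alternatives. The genes past 1.5-fold, KO over WT in cycling cells, numbered 1428, and 567 with cells thinned before the rule, 2850 with at least 20 UMIs per gene and 693 with at least 100, and the share of higher genes was 58.2%, or 39.9% when thinned. The 30 named genes past the fold were 3 when thinned and 2 without each gene's top cell (chosen after seeing the data), which were all that still had 50 UMIs. The genes past 2-fold in both libraries, cycling over other Epcam-positive cells, numbered 2227, and 1397 with at least 2 proliferation genes needed. The genes past 2-fold in both libraries, Aire-positive over Aire-zero cycling cells, numbered 543, and 112 when thinned, 1099 with at least 20 UMIs and 287 with at least 100. Of 333 alternative list medians 310 moved little, 20 moved further and 3 reversed. The reversed ones were Aire-linked antigens, -0.69 with 2 proliferation genes, and, when thinned to 19 and 21 cells, Ccl21 and basal genes, -0.46, and chemokines, 0.75. Of 1440 gene values 1359 moved by less than 1.5-fold, 77 moved further and 4 reversed: Ccl20 to 0.066 with 2 proliferation genes and 0.46 when thinned, Prim1 to -2.15 when thinned and Hist1h1e to -0.18 with equal weight per cell. The cause was not tested.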
